A study of Mus musculus with 27 samples.

Results

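The DNA methylation valleys of mouse formative pluripotent stem cells (fPSCs) at passage 10 (P10) were taken as the longest stretches of the genome with almost no methylated CpG. A valley was a run of consecutive 100 bp windows at a methylation level of 20% or less. It was joined over at most 3 windows without a value, ended by any window above 20%, and spanned at least 5 kb on 1 of the 19 autosomes. Of 211255 low-methylation stretches on the autosomes, 151 were valleys. Together they covered 999900 bp, which is 0.0404% of the autosomes. Their span ran from 5.00 to 12.9 kb with a median of 6.20 kb, and the next class, stretches of 2 to under 5 kb, held 2446 members.

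fPSCs are self-renewing cells between naive embryonic stem cells (mESCs) and primed epiblast stem cells (EpiSCs). They were derived from mESCs through Epiblastoids, embryo-like cell aggregates in Matrigel, or directly from E5.5 and E6.5 epiblasts. They were kept in N2B27 medium with Activin A, bFgf2 and the Wnt pathway inhibitor XAV939. Methylation, the histone marks H3K4me3 and H3K27me3, and RNA were measured at P10, and the labels do not state the line of these cells or whether they came from the same culture. For the RNA of passages 1, 10, 20 and 30 the study names the CMT line. RNA was also measured at passages 20 and 30, in 4 more fPSC libraries (46C P24, BVSC P14, CMT P11, ROSAmTmG P12), at P1, in fPSCs from E5.5 and E6.5 epiblasts, in mESCs (2i/LIF, without feeders), EpiLCs (Activin A, bFgf2 and KSR) and EpiSCs (Activin A, bFgf2, XAV939 and KSR), with 2 libraries each, and in Epiblastoids on days 2, 3 and 4. The study describes 46C as a Sox1-GFP reporter line, BVSC as a Blimp1 and Stella reporter line, and ROSAmTmG cells as carrying tdTomato. It marks CMT P11 as cryopreserved. EpiSCs were grown on mouse embryonic fibroblasts as feeders, while the other cells had none named. All samples carry the label WT, each histone and methylation track is 1 track without replicate values, and passages 10, 20 and 30 of fPSCs follow each other in culture and are not independent cultures.

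CpG islands are CpG-rich stretches that are usually kept free of methylation. Valleys are longer unmethylated stretches, which can hold several islands and the less CpG-rich sequence between them and often lie around genes of embryonic regulators. H3K4me3 is laid down at promoters by Trithorax-type enzymes and is found at active and poised genes. H3K27me3 is laid down by Polycomb repressive complex 2 and marks repressed genes, and both marks together form the bivalent state of developmental genes in pluripotent cells.

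The P10 library carried transcripts of pluripotent and formative cells and of the primitive streak and endoderm. Pou5f1, which encodes the pluripotency factor Oct4, stood at 493 FPKM, Nanog at 75.4 and Otx2 at 48.9 FPKM. FPKM count fragments per kilobase of a transcript after division by library size. Of the streak and endoderm markers, Foxa2 stood at 44.3 FPKM, Eomes at 29.6, T at 16.5, Mixl1 at 15.7 and Sox17 at 3.57 FPKM. The naive marker Zfp42 stood at 0.0179 FPKM, the neural factor Pax6 at 0.00399 and the fibroblast collagen Col1a1 at 0.148 FPKM. Among the pluripotency markers, Dppa4 was low, at 0.220 FPKM.

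The sequence of 4 valleys is shown to make the 2 kinds of valley described below visible at the level of bases. For each, the 300 bases with the most CpG outside annotated exons were read from the + strand of NCBIM37 (mm9), and capitals mark each CpG. Foxb1 lies at chr9:69616901-69617200, Nkx2-5 at chr17:26981501-26981800, Otx2 at chr14:49286101-49286400 and Tgif1 at chr17:71202301-71202600.
Foxb1: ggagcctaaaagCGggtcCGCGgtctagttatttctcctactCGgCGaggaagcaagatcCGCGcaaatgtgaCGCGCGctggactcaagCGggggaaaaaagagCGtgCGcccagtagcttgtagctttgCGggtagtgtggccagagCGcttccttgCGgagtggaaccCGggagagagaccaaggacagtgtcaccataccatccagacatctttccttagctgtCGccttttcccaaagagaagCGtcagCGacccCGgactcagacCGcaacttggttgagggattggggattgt
Nkx2-5: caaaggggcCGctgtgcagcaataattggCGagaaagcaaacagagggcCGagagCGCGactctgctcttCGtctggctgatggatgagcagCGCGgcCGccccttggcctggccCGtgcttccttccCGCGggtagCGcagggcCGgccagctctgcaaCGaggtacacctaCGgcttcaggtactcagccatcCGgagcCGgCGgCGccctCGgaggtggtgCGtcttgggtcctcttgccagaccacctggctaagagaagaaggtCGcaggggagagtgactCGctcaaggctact
Otx2: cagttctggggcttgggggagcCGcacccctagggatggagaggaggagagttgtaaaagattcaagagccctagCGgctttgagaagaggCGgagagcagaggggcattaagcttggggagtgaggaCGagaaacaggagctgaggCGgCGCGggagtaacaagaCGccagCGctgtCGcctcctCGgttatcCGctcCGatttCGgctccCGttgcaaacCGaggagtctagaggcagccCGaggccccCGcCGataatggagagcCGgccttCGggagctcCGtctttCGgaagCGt
Tgif1: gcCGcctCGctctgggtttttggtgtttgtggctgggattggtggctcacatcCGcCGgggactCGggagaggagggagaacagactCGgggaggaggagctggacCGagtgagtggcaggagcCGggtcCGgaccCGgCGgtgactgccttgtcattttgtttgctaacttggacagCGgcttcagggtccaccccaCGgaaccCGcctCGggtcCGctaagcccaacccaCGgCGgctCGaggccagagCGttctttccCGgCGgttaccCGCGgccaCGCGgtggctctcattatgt
All 3 windows of each stretch were listed at 0% methylation, except that only 1 of the 3 was listed in Tgif1, also at 0%. The number of CpG was 22 in Foxb1, 24 in Nkx2-5, 24 in Otx2 and 26 in Tgif1. H3K27me3 over these bases was 5.16 RPKM (reads per kilobase, scaled to the mapped reads of the library) in Foxb1 and 5.37 in Nkx2-5. It was 0.213 RPKM in both Otx2 and Tgif1. Stretches with nearly the same number of CpG were thus found with and without H3K27me3.

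The end of a valley is shown for the longest valley, Foxb1, and for Tgif1, with the last window inside and the window that closed it. The windows of Foxb1 lie at chr9:69617701-69617800 and chr9:69617801-69617900, and those of Tgif1 at chr17:71203301-71203400 and chr17:71203401-71203500.
Foxb1 inside: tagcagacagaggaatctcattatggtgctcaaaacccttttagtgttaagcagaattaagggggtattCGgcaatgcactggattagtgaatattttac
Foxb1 outside: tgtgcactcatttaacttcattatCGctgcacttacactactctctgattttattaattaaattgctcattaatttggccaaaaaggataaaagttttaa
Tgif1 inside: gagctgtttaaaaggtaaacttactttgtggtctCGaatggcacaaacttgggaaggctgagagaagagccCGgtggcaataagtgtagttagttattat
Tgif1 outside: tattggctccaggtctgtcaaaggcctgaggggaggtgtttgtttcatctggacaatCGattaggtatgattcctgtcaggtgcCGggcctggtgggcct
The windows of Foxb1 hold 1 CpG each and those of Tgif1 hold 2 each. Methylation went from 11% to 21.0% at the Foxb1 end and from 0% to 33.0% at the Tgif1 end. The Foxb1 valley was thus closed by a window just above the 20% limit.

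The valleys were chosen by their methylation, so the methylation values only describe them. The mean methylation of a valley had a median of 1.64% and ran from 0.163 to 4.97%, against a mean of 87.0% over the 9814507 listed autosomal windows. Values were listed for 64.0 to 95.3% of the windows of a valley, and the coverage behind them is unknown. Of the 302 valley ends, 221 were set by a window above the limit and 81 by a longer gap without values. The closing window had a median methylation of 37.0%, and 84 of the 221 (38.0%) lay between 20 and 30%. Around the threshold of 5 kb, the shortest members were a valley on chromosome 1 that lies inside Nr5a2 and holds no gene start, Zmiz1, and the shared valley of Tshz1 and Zadh2, all of 5.00 kb. The longest stretches left out were another stretch on chromosome 1, Mycn and Bmp4, all of 4.90 kb. There were 8 valleys of 5.00 kb and 12 stretches of 4.90 kb.

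All 151 valleys were marked by H3K4me3, and 104 of them (68.9%, 95% Wilson interval 61.1 to 75.7%) were also marked by H3K27me3. A valley was called marked when its mean was at least 5 times the autosomal mean, which is 1.97 RPKM for both marks. The remaining 47 valleys (31.1%) had H3K4me3 without H3K27me3. The median number of reads behind a valley's mean was 259 for H3K4me3 and 321 for H3K27me3. Intervals cover counting error only, since no second track is given for either mark.

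H3K27me3 separated the valleys more than H3K4me3 did. Its mean ran from 0.0483 RPKM near Rarg to 7.37 RPKM near Hoxc10. Relative to the autosomal mean, 22 valleys lay under 1 time, 7 at 1 to 2 times, 18 at 2 to 5 times, 23 at 5 to 8 times and 81 at 8 times or more. H3K4me3 ran from 2.74 RPKM near Nr2f2 to 12.6 RPKM. The median of H3K4me3 was 4.46 RPKM in valleys with both marks and 6.66 RPKM in those without H3K27me3, and the ranges overlapped (2.74 to 8.54 and 3.01 to 12.6 RPKM). Across the 151 valleys of this 1 pair of tracks, the marks had a Pearson correlation of -0.62 and a Spearman correlation of -0.54, given as a description. Within the 104 valleys with both marks these were -0.21 and -0.20.

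**Figure D1:**
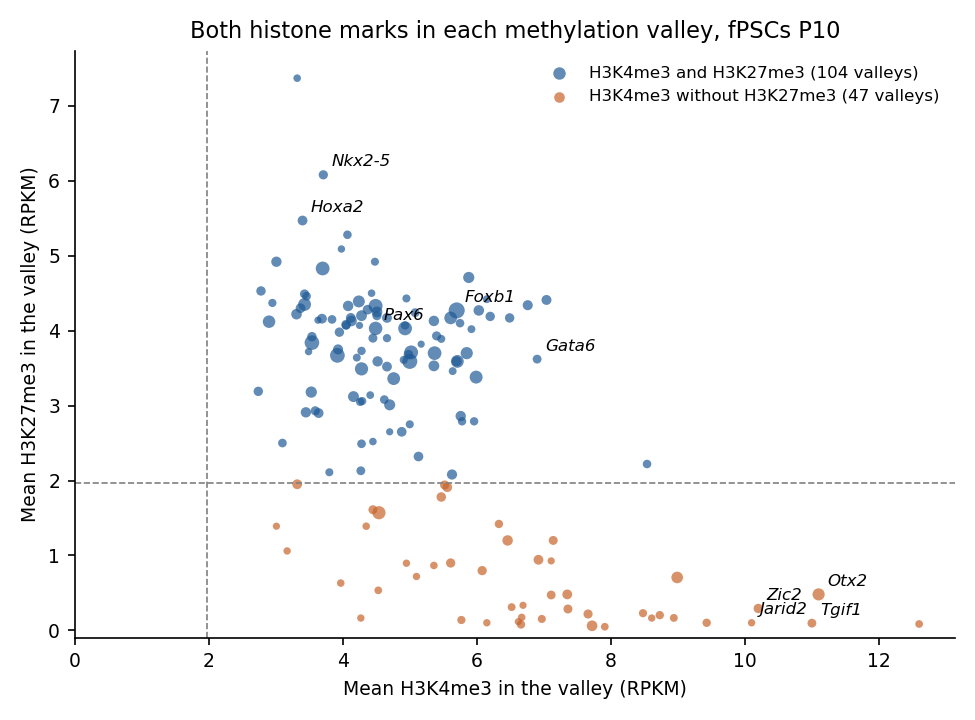
Mean H3K27me3 against mean H3K4me3 (both RPKM) in each of the 151 valleys of fPSCs P10, with point area growing with span and dashed lines at the limit of 1.97 RPKM. Blue points are the 104 valleys with both marks and orange points the 47 with H3K4me3 without H3K27me3, among them Tgif1 at 0.0960 RPKM of H3K27me3.

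The valleys of highest H3K27me3 lay at homeobox genes. After the one near Hoxc10 came Nkx2-5, a heart regulator, at 6.08 RPKM (exact Poisson interval 5.60 to 6.59), Hoxa2, which patterns the hindbrain, at 5.47 RPKM, a valley 9466 bp from Hoxd4 at 5.28 RPKM, and one 8315 bp from Nkx2-3 at 5.09 RPKM. The lowest H3K27me3 after the one near Rarg was at Setd1b, which encodes an H3K4 methyltransferase, at 0.0608 RPKM. Then came Smad7, an inhibitor of TGF-β signalling, at 0.0786 RPKM, and the homeobox gene Tgif1 was at 0.0960 RPKM. Otx2 (11.1 RPKM), Tgif1 (11), Zic2 (10.2) and Jarid2 (10.1), a cofactor of Polycomb repressive complex 2, were among the highest in H3K4me3. The lowest H3K4me3 after the valley near Nr2f2 was at En1 (2.78 RPKM), Lbx1 (2.90), Tfap2d (2.95) and the valley shared by Tshz1 and Zadh2 (3.01), closely followed by Foxf1. H3K27me3 was between 4.12 and 4.92 RPKM at En1, Lbx1, Tfap2d and Foxf1 and 1.39 RPKM at Tshz1 and Zadh2.

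Among low-methylation stretches, the share with H3K27me3 was larger in longer ones. It was 9.20% of 8284 stretches of 1 to under 2 kb (8.59 to 9.84%), 18.7% at 2 to under 3 kb, 37.6% at 3 to under 4 kb and 55.4% at 4 to under 5 kb (47.8 to 62.8%). Valleys of 5 to under 7 kb followed with 61.8% (68 of 110, 52.5 to 70.4%), and valleys of 7 kb or more reached 87.8% (36 of 41, 74.5 to 94.7%). The intervals of the last 2 classes did not overlap, while those of the 4 to 5 kb and 5 to 7 kb classes did, so no clear step was seen at 5 kb itself. The intervals treat the stretches of 1 track as independent, though some are neighbours, so they are no test between classes. H3K4me3 did not set valleys apart, since 95.7% of the stretches of 1 to under 2 kb and 98.8% of those of 2 to under 5 kb had it too.

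**Figure D2:**
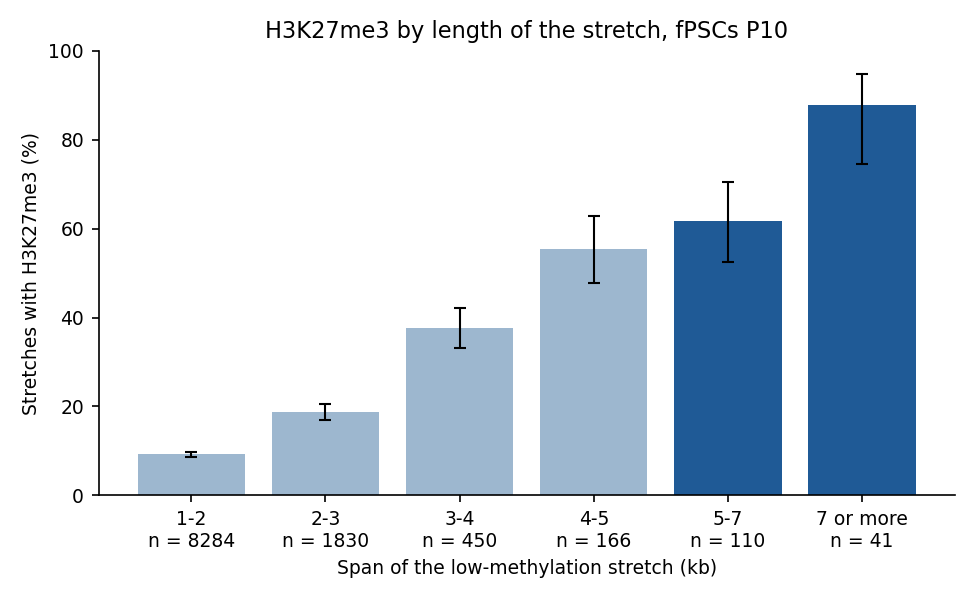
Percent of low-methylation stretches with H3K27me3 by span in kb, in fPSCs P10, with 95% Wilson intervals and the number of stretches under each bar. Dark bars are valleys, and the share goes from 9.20% at 1 to 2 kb to 87.8% at 7 kb or more.

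Valleys with H3K27me3 had fewer CpG and lay in less methylated surroundings. The median was 3.99 CpG per 100 bp (range 1.90 to 7.97) in valleys with both marks and 5.69 (3.31 to 9.04) in those without H3K27me3, against 0.851 over the autosomes. Methylation in the 5 kb on each side had a median of 31.8% beside valleys with both marks and of 76.6% beside the others. At the edge, mean methylation beside valleys with both marks was 27.3% within 1 kb outside and 38.5% at 2 to 5 kb, whereas it was 49.5% and 72.4% beside valleys without H3K27me3.

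The marks also ended differently. In valleys with both marks, mean H3K27me3 was 4.66 RPKM in the 1 kb outside the edge, 4.08 RPKM in the 1 kb inside it and 3.68 RPKM deeper inside, so it did not stop at the edge. It was still 3.50 RPKM at 2 to 5 kb outside. The bins outside include neighbouring low-methylation stretches, so the values there depend on where the rule ended a valley. H3K4me3 of the same valleys was 2.88 RPKM in the 1 kb outside and 4.43 RPKM in the 1 kb inside. In valleys without H3K27me3 the step of H3K4me3 was from 3.64 to 6.72 RPKM. Bins of 100 bp above the limits of both marks made up 43.6% of valley bins and 0.518% of all autosomal bins.

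**Figure D3:**
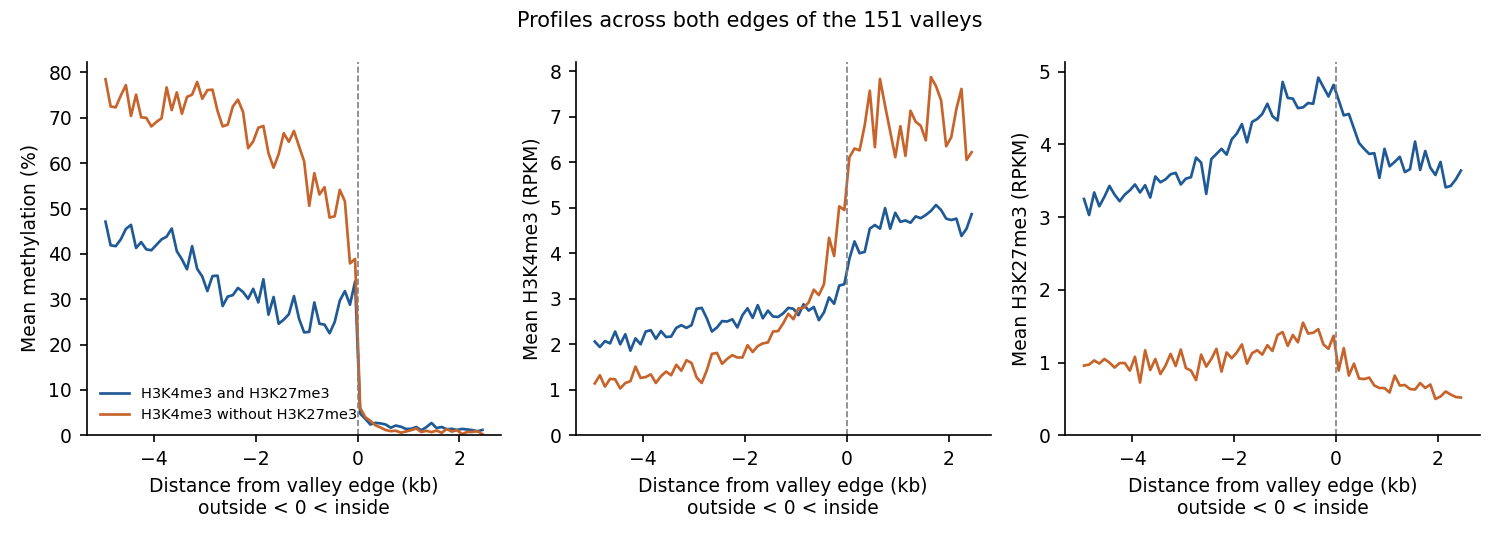
Mean methylation (%), H3K4me3 and H3K27me3 (RPKM) by distance from the valley edge in kb, negative outside and positive inside, over both edges of the 104 valleys with both marks (blue) and the 47 with H3K4me3 without H3K27me3 (orange). H3K27me3 of the blue valleys is highest near the edge, with 4.66 RPKM in the 1 kb outside, and methylation falls at the edge by definition.

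A gene from 8 lists of transcription factor families started in 67 of the 151 valleys (44.4%). The start of a protein-coding gene lay in 107 valleys (70.9%), which gave 115 genes. Of these genes, 67 (58.3%) were in the 8 lists, against 2.01% of the 21142 autosomal protein-coding genes. The share was 7.68% of the genes that start in stretches of 2 to under 5 kb. Within that class it was larger in longer stretches, with 4.02% at 2 to under 3 kb, 17.3% at 3 to under 4 kb and 29.2% at 4 to under 5 kb. The homeobox list gave 33 genes, among them Pax6 of the eye and forebrain, Lmx1b, Meis2, Otx2, Six3, Lhx1 and Pdx1 of the pancreas, and 30 of the 33 lay in valleys with both marks. A list of zinc finger, nuclear receptor, Dmrt and other developmental factors gave 19, with Dmrta2, Osr2, Dmrt3 and Fezf1 the longest, and 15 lay in valleys with both marks. The Sox list gave Sox2, Sox9 and Sox11, all in valleys under the H3K27me3 limit, with Sox9 close to it at 1.94 RPKM. The forkhead list gave 6, the Gata list Gata3 and Gata6, the T-box list Tbx3, the bHLH list Hand2 and Hes7, and the Zic and Gli list Zic2. The lists were matched by gene name and are not complete. Helt and Myc, which also started in valleys, were in none of them.

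Other lists were set beside the 0.544% of all autosomal protein-coding genes that start in a valley. Secreted signals gave Gdf6 of 133 genes (0.752%), near the share of all genes, and their receptors Fzd10 and Fgfr2 of 55 (3.64%). Fgfr2 was counted through an annotated gene model of chr7:137305965-140315033, whose 5 prime end lies in the valley of Ctbp2. Whether Fgfr2 transcripts start there was not tested, and the gene stays in the counts of valley genes. None of 28 housekeeping genes lay in a valley. Of 49 Polycomb and Trithorax genes, 4 did (8.16%). The Polycomb subunit gene Cbx8 was in a valley with both marks, and Setd1b and Jarid2 in valleys without H3K27me3. Of 33 pluripotency genes, 5 did (15.2%, where the transcription factor lists had 15.8%), and of these Otx2, Sox2, Zic2 and Foxd3 had no H3K27me3 call while Tbx3 had both marks.

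The 12 longest valleys with a gene held regulators of many tissues. Foxb1, a forkhead gene of the brain, had the longest (12.9 kb, chr9:69604901-69617800), with 5.70 RPKM of H3K4me3, 4.27 RPKM of H3K27me3 and an expression of 0.395 FPKM. Next was 4930412O13Rik (11.7 kb), which lies 1800 bp before the 9.40 kb valley shared by 9230102O04Rik and Gata3, so a pair of long valleys lay side by side at the Gata3 locus. Dmrta2 (11.2 kb), Hand2 of heart and limb (10.5 kb), Osr2 (10.4 kb), Dmrt3 and Lmx1b (10.3 kb each), Fezf1 (10.2 kb), Pax6 (10 kb, chr2:105506601-105516600) and Cbx8 (9.70 kb) followed. In these the mean of H3K27me3 was between 3.49 and 4.83 RPKM. Meis2 (9.70 kb) stood apart with 1.57 RPKM, which is 4.00 times the autosomal mean and under the limit. Expression of the 12, where listed, did not pass 0.395 FPKM.

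In 44 valleys no annotated protein-coding gene started, and 38 of these had both marks. In 7 of the 44 another kind of gene started, such as Nkx2-2as in the valley near Nkx2-2. A protein-coding start lay within 10 kb of 28 of the 44, 30 had a member of the transcription factor lists as the nearest start, and 13 held the start of another protein-coding transcript. The longest lay 2479 bp from Nkx2-2 (11.3 kb), a regulator of neural tube and pancreas, then came valleys 73182 bp from Kcnrg (9.40 kb) and 204575 bp from Meis2 (8.70 kb), and another lay 1573 bp from Ebf3 (7.50 kb). H3K27me3 in these 4 was between 3.38 and 4.2 RPKM. Valleys also came in groups, with 27 of the 151 within 10 kb of another valley.

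Of the genes the study follows, Pax6, Foxf1, Gata6, Nkx2-5, Pdx1, Otx2, Zic2 and Hoxa2 started in a valley. At Gata6, an endoderm regulator, the valley of 6 kb had 6.90 RPKM of H3K4me3 and 3.62 RPKM of H3K27me3. Foxa2 (3.30 kb), Pou5f1, T and Hand1 (3.10 kb each), Utf1 (2.70 kb) and Fgf5 (3.00 kb) started in shorter low-methylation stretches, and Esrp1, with 4.90 kb, just missed the 5 kb. Fgf5, a formative marker, was at 107 FPKM without a valley at its start. In the Hoxa cluster only Hoxa2 started in a valley (6.70 kb), and Hoxa11 came next with a stretch of 4.10 kb. Gata4 did not start in a valley by its gene model, but a valley of 6.70 kb lay inside it, 21429 bp from that start. This valley held the start of a protein-coding transcript and had 4.66 RPKM of H3K4me3 and 4.17 RPKM of H3K27me3. Gata4, at 2.33 FPKM, is not in the counts of valley genes.

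Expression followed the histone marks of the valley. Of the 115 genes 110 were in the FPKM table, and 70 of them (63.6%) were under 1 FPKM in fPSCs P10, against 49.4% of all autosomal protein-coding genes in the table and 24.9% of genes starting in stretches of 2 to under 5 kb. In valleys with both marks 61 of 66 genes (92.4%) were under 1 FPKM, 21 were listed at 0, the median was 0.0465 FPKM and no gene reached 10 FPKM. In valleys without H3K27me3 9 of 44 (20.5%) were under 1 FPKM, the median was 10.9 FPKM and 22 reached 10 FPKM. In steps of H3K27me3, genes under 1 FPKM numbered 0 of 20 at less than the autosomal mean, 1 of 6 at 1 to 2 times, 8 of 18 at 2 to 5 times, 17 of 18 at 5 to 8 times and 44 of 48 at 8 times or more. Reads of a gene and of an antisense transcript in the same valley, such as Pax6os1 beside Pax6, cannot be told apart, since no strand setting is stated. Over the 110 genes, which share 1 library and 1 track, H3K27me3 and log2(FPKM + 1) had a Pearson correlation of -0.76 and a Spearman correlation of -0.80.

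Of the 110 valley genes, 40 were at 1 FPKM or more in fPSCs P10, and Otx2, Sox2, Zic2 and Foxd3 of the pluripotency list were among them. Zic2, a zinc finger factor of the epiblast, was highest with 104 FPKM, 88.2 and 97.3 at passages 10, 20 and 30. It was followed at P10 by Tgif1 (91.4 FPKM), the corepressor gene Ctbp2 (79.7), the cyclin gene Ccnd1 (72.2), Spry2, an inhibitor of FGF signalling (61.8), the corepressor gene Tle3 (58.2), Myc (55.4), Otx2 (48.9) and Brd2 (47.7). All 9 had valleys without H3K27me3. The 9 genes under 1 FPKM in such valleys were Meis2, Nr2f1, Sfmbt2, Pcdh10, Tshz1, Zadh2, Aloxe3, Hes7 and Mex3b, and apart from Mex3b their valleys held H3K27me3 at 2.28 to 4.96 times the autosomal mean.

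In valleys with both marks 5 genes were at 1 FPKM or more, and 4 of them are genes of the primitive streak and early mesendoderm. Lhx1 was at 7.81, 5.53 and 1.54 FPKM at passages 10, 20 and 30, Gsc at 6.90, 4.09 and 1.87, Sp5 at 3.11, 2.26 and 2.09 and Gata6 at 1.82, 1.59 and 0.396. These 4 were lower at passage 30 than at passage 10, with 1 library each. In 46C P24 Lhx1 was at 86.5 FPKM, Gsc at 56.5 and Gata6 at 21.8, each higher than in the other fPSC libraries, and Sp5 was at 12.8 FPKM, next to 13 FPKM in fPSCs from E5.5 epiblasts. Sall3 was at 1.01, 1.57 and 3.79 FPKM. In bulk libraries a low level in every cell and a higher level in a few cells cannot be told apart.

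**Figure D4:**
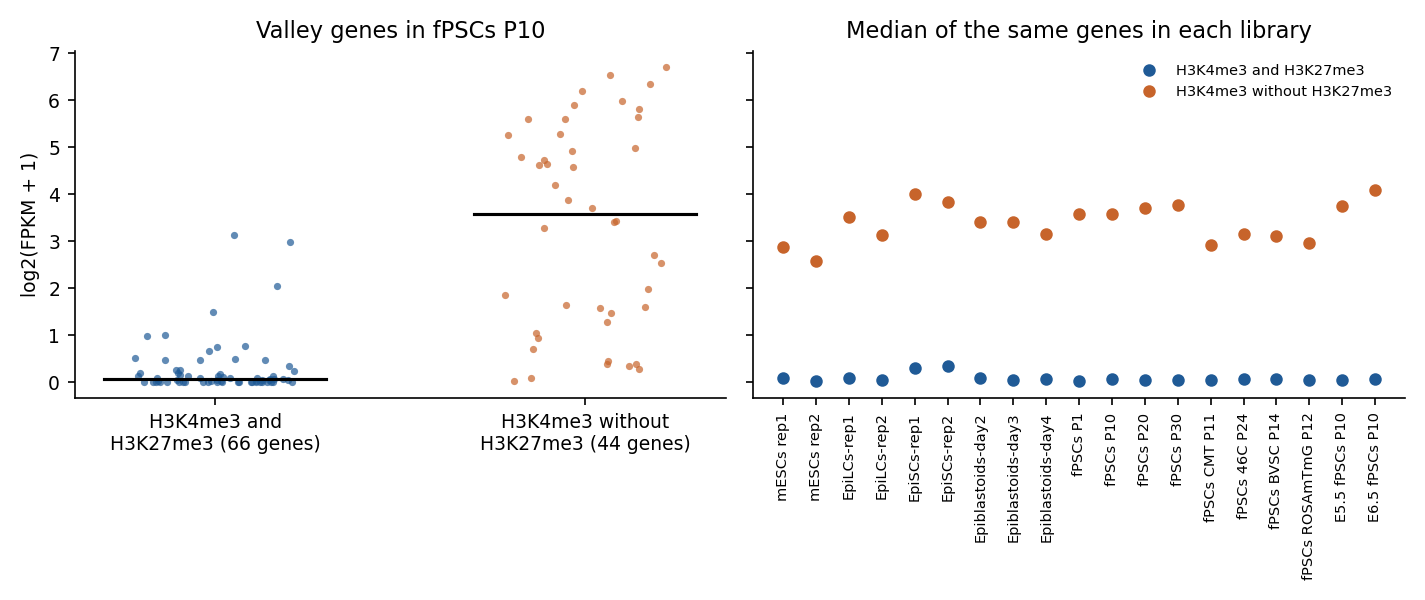
Left, log2(FPKM + 1) in fPSCs P10 for 66 genes of valleys with both marks and 44 of valleys with H3K4me3 without H3K27me3, 1 point per gene and a line at the median. Right, the median of the same genes in each of the 19 libraries, which is higher for the second set in all of them.

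The 61 silent genes of valleys with both marks were followed across the other libraries, beside all genes under 1 FPKM at P10. Of the 61, 1 reached 1 FPKM at passage 20 and 0 at passage 30, against 1.74% and 1.88% of all such genes. In the 4 more fPSC libraries named above the number was 0 in CMT P11 and ROSAmTmG P12 (all genes 4.41 and 4.45%), 1 in BVSC P14 (1.64%, all genes 4.47%) and 6 in 46C P24 (9.84%, all genes 6.77%). These 4 are numbered apart from the other RNA samples. Their median for genes of valleys without H3K27me3 was 6.61 to 7.92 FPKM, against 10.9, 12.0 and 12.6 FPKM at passages 10, 20 and 30. The source of this difference was not tested. The number of silent genes reaching 1 FPKM was 2 in fPSCs from E5.5 epiblasts (3.28%, all genes 3.03%) and 4 in those from E6.5 epiblasts (6.56%, all genes 3.12%). EpiLCs had 3 in each library (4.92%, all genes 6.61 and 7.27%). In mESCs the share was near that of all genes, with 8 and 7 (13.1 and 11.5%, all genes 11.3 and 10.8%). EpiSCs had 17 and 13 (27.9 and 21.3%, all genes 8.61 and 8.55%), and the 5 fibroblast markers described below summed to 626 and 740 FPKM there and to 3.92 FPKM in fPSCs P10. Their part in this count was not tested.

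Epiblastoids on day 4 had 9 of the 61 at 1 FPKM or more (14.8%, against 6.03% of all genes under 1 FPKM at P10), after 3 on day 2 and 4 on day 3 (4.92 and 6.56%, all genes 6.59 and 6.60%). They were led by the mesoderm and neural crest gene Msx1, at 2.21, 1.75 and 32.0 FPKM on days 2, 3 and 4. Tbx3 stood at 28.3 FPKM on day 4, Six2 at 22.6, the growth factor receptor gene Pdgfra at 20.1, Foxf1 of the lateral mesoderm at 5.75 and Hand2 at 4.68 FPKM. On days 2 and 3 Tbx3, Six2, Pdgfra, Foxf1 and Hand2 were at or below 0.364 FPKM. The streak genes already seen in fPSCs were higher still on day 4. Lhx1 was at 121 FPKM, Gsc at 96.1, Sp5 at 72.3 and Gata6 at 38.4 FPKM. Each day is 1 library, so these are levels without a test.

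Next, fPSCs at passages 10, 20 and 30 were compared with mESCs to ask which valley genes differ from the naive state. Genes were tested with limma on log2(FPKM + 1). A call needed a fold of at least 1.5 and an adjusted p (Benjamini-Hochberg) below 0.05. Of the 110 valley genes 61 reached 1 FPKM in at least 2 libraries and were tested, 21 of them from valleys with both marks. Of all 12316 genes tested 19.9% were higher and 31.9% lower in fPSCs than in mESCs. Among the 61 valley genes, 23 rose and 19 fell. From valleys without H3K27me3 20 of 40 rose and 10 fell, and from valleys with both marks 3 of 21 rose and 9 fell. The median log2 difference was 0.54 and -0.30 for these 2 sets and -0.17 over all genes tested. Many calls were fixed in part by the filter on low values, which such genes passed only through groups where they are high. This holds for 7 of the 9 falls with both marks and 4 of the 10 without H3K27me3, which were under 1 FPKM in all fPSC libraries, and for all 3 rises with both marks and 8 of the 20 without H3K27me3, which were under 1 FPKM in both mESC libraries.

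The genes that rose most lay in valleys without H3K27me3. Myc, a growth regulator, was at 0.829 and 0.669 FPKM in mESCs and at 55.4, 68.6 and 63.8 FPKM in fPSCs, a log2 difference of 5.18 (SE 0.24, limma adjusted p = 2.61e-07). Sox11, a Sox factor of neural progenitors, was at 0.204 and 0.0792 FPKM in mESCs and between 25.3 and 35.2 FPKM in fPSCs (log2 difference 4.75). Adgrl2 rose by 4.17 on the log2 scale, Zfp423 by 3.91 and the phosphatase gene Dusp4 by 3.78. All 5 were under 1 FPKM in both mESC libraries. Among the formative factors, Otx2 and Zic2 rose too, with Otx2 at 16.2 and 13.3 FPKM in mESCs and 48.9, 48.7 and 40.9 FPKM in fPSCs.

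Of the 5 genes that fell most, 3 were in valleys with both marks. Tbx3, a naive-state T-box factor, was at 47.4 and 29.3 FPKM in mESCs and at 0.138, 0.124 and 0.129 FPKM in fPSCs, a log2 difference of -5.08 (SE 0.19, limma adjusted p = 8.33e-08). Sp5, a target of Wnt signalling, went from 29.0 and 47 FPKM to between 2.09 and 3.11 FPKM (-3.45). Tfap2a fell by 2.13 on the log2 scale. Sox2 and Meis2, which have valleys without a H3K27me3 call, also fell, Sox2 from 218 and 210 FPKM to between 25 and 26.6 FPKM (-3.01) and Meis2 by 2.99. The Polycomb subunit gene Cbx8, in a valley with both marks, fell as well, and it was at 2.33 and 2.30 FPKM in mESCs and at 0.275, 0.296 and 0.183 FPKM in fPSCs. Gsc, also in such a valley, was lower in fPSCs too, with a log2 difference of -1.50. Tbx3, Tfap2a, Meis2 and Cbx8 were under 1 FPKM in all fPSC libraries. They passed the filter on low values only through other groups, so their falls were fixed in part by it.

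Against EpiSCs, the primed state, 10.1% of all genes tested were higher and 21.4% lower in fPSCs. Of the 61 valley genes 8 rose and 27 fell. Of those with both marks 2 of 21 rose and 13 fell, with both rises under 1 FPKM in all EpiSC libraries and 11 of the falls under 1 FPKM in all fPSC libraries. Of those without H3K27me3 6 of 40 rose and 14 fell, 4 of the latter under 1 FPKM in all fPSC libraries. Calls of genes under 1 FPKM in a whole group were again fixed in part by the filter on low values. Both counts of valley genes were lower with either EpiSC library left out, which leaves only 1 library in that group. The matching share of all genes was not compared. Transcripts of fibroblasts moved with this comparison, since the 5 markers Col1a1, Col1a2, Acta2, Tagln and Thy1 summed to 626 and 740 FPKM in EpiSCs and to 3.92, 4.39 and 3.98 FPKM in fPSCs. Each of the 5 was above 0 in every library of both groups and higher in both EpiSC libraries than in fPSCs. Thy1 did not set EpiSCs apart, with 4.63 and 4.01 FPKM there. It was at 4.14 and 4.38 FPKM in EpiLCs and at 7.64 FPKM in ROSAmTmG P12, cells without named feeders. The part of fibroblast transcripts in the lower values of valley genes was not tested.

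Among the genes that rose were factors of the formative state and the streak. Otx2 was at 15.4 and 8.60 FPKM in EpiSCs and between 40.9 and 48.9 FPKM in fPSCs, a log2 difference of 1.90 (SE 0.22, limma adjusted p = 1.59e-04). Foxd3, a forkhead factor of the epiblast, was at 4.93 and 9.09 FPKM in EpiSCs and at 37.4, 28 and 20.2 FPKM in fPSCs (1.89). Lhx1 (1.89) and Gsc (1.84) had both marks on their valleys and rose as well, from 0.185 and 0.702 FPKM for Lhx1 and from 0.119 and 0.643 FPKM for Gsc in EpiSCs. Zic2 rose by 1.36 on the log2 scale. The calls of Lhx1 and Zic2 were the least firm. Without EpiSCs replicate 1 the limma adjusted p of Lhx1 was 0.0690, and without EpiSCs replicate 2 that of Zic2 was 0.0638, the highest over their 10 alternatives, whose lowest values were 7.31e-05 and 3.06e-04.

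Igfbp5, a binding protein of insulin-like growth factors, fell most. It was at 85.2 and 66.9 FPKM in EpiSCs and at 1.78, 1.69 and 1.18 FPKM in fPSCs, a log2 difference of -4.91 (SE 0.20, limma adjusted p = 2.60e-07). Meis2 (-2.97), Zfp516 (-2.81) and Zadh2 (-2.50) came from valleys without a H3K27me3 call, and Wt1 (-2.48), a regulator of kidney and mesothelium, from a valley with both marks. Wt1 was at 5.64 and 4.05 FPKM in EpiSCs and at 0.0400, 0.0695 and 0.0108 FPKM in fPSCs. Foxb1, the gene of the longest valley, was at 3.06 and 3.03 FPKM in EpiSCs and at 0.395, 0.0453 and 0.179 FPKM in fPSCs, and it fell too. Wt1, Meis2, Zadh2 and Foxb1 were under 1 FPKM in all fPSC libraries and passed the filter on low values only through other groups. Both comparisons share the fPSC libraries, so their calls are not independent of each other.

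**Figure D5:**
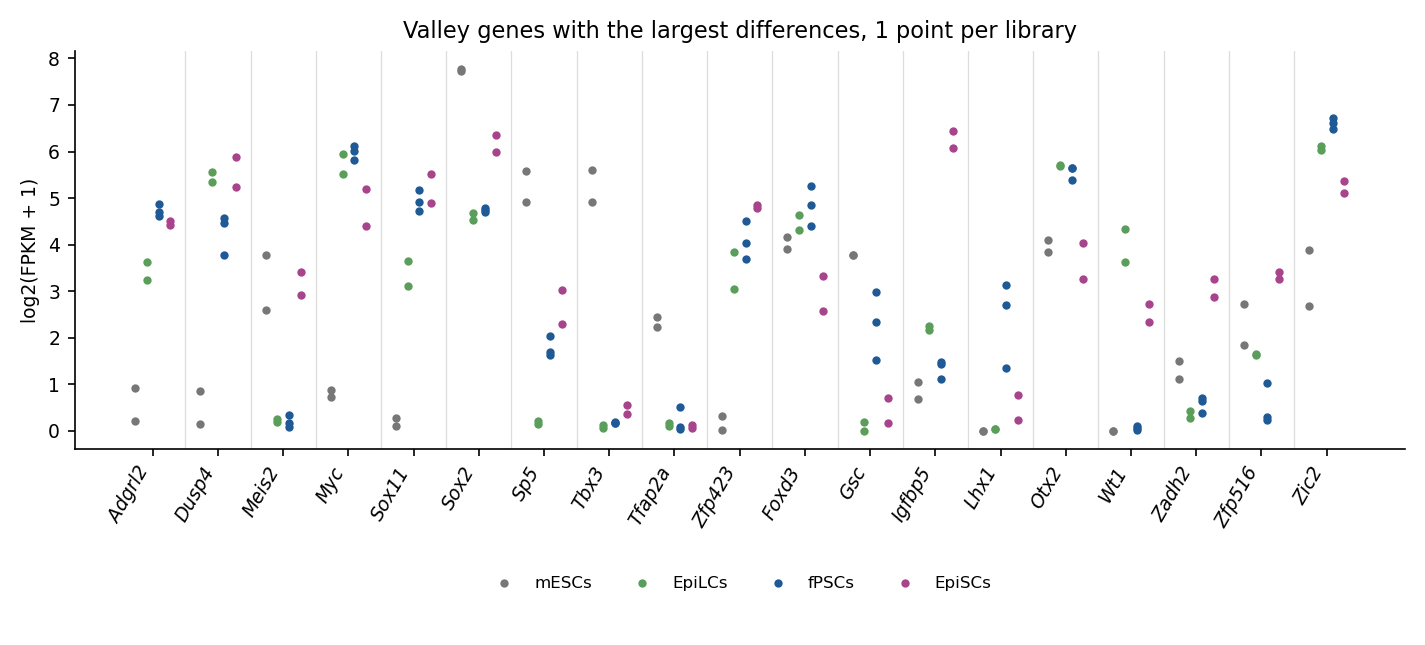
Expression as log2(FPKM + 1) of the 19 valley genes with the largest differences, 1 point per library of mESCs (2), EpiLCs (2), fPSCs at passages 10, 20 and 30 (3) and EpiSCs (2). Tbx3 and Sp5 are high in mESCs, Igfbp5 in EpiSCs, and Myc and Sox11 are low in mESCs and high in the other groups.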

How the data were processed

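Bisulfite sequencing of fPSCs P10 was mapped to mm9 with bs_seeker2, and the authors deposited the fraction methylated in each 100 bp window, without coverage. ChIP-seq of both marks was deposited by the authors as RPKM per 100 bp bin (Trim Galore, Bowtie2 2.2.2). All H3K4me3 values tested and nearly all of H3K27me3 were whole multiples of 1 read (tolerance 0.0051 RPKM), and 1 read in a bin was worth 1.24 RPKM for H3K4me3 and 0.645 RPKM for H3K27me3. Bins not listed were taken as 0. The study's methods state that ChIP-seq replicates were combined once they had been compared. The files do not state this for their tracks. RNA was deposited by the authors as FPKM (cutadapt 1.11, TopHat2 2.1.1, Cufflinks 2.1.1), so its depth is unknown, and 4 entries with repeated names were left out. The labels do not state that RNA libraries of a group came from separate cultures, so p-values measure only the spread between them. Single-cell tables were not used.

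Genes came from the GENCODE annotation of NCBIM37 (mm9). Of 21142 autosomal protein-coding genes, 18376 were matched to the FPKM table, 1343 by a RefSeq synonym. The test was limma (version 3.58.1, R 4.3.3, trended prior) on log2(FPKM + 1), a scale that understates changes of low genes. A single model held fPSCs at passages 10, 20 and 30, mESCs, EpiLCs and EpiSCs. Adjustment ran over all 12316 genes. The steps were tested on simulated data. Other limits, joins, spans, pseudocounts, filters, scalings and libraries were tried as alternatives. Named genes are the 12 longest valleys with a gene and 5 longest without, the 5 highest and lowest by each mark, the 10 most expressed genes, genes of the study, and the 5 largest rises and falls per comparison past the threshold, with separate libraries and a group mean of at least 3 FPKM. Other names illustrate a count and were chosen after their values were seen. Members, lists and tests were chosen with earlier results of these data known. Some genes that this rule names are not reported here.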

Additional observations from a re-analysis of the deposited data

Results flagged for a closer look

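Among the 4 fPSC libraries named 46C P24, BVSC P14, CMT P11 and ROSAmTmG P12, 46C P24 stood apart from the others at genes of valleys with both marks. It had 6 of 61 silent genes at 1 FPKM or more, and the others had 1, 0 and 0. All genes under 1 FPKM at P10 moved the same way, with 6.77% at 1 FPKM or more in 46C P24 and 4.41 to 4.47% in the others. The 6 genes were Six2 (1.89 FPKM), Gata3 (1.61), Pdgfra (1.47), Crnde (1.44), Prox1 (1.44) and Irx5 (1.03). Of the 5 expressed genes, Lhx1 was at 86.5 FPKM in 46C P24 and at 13.6, 7.11 and 1.32 FPKM in CMT P11, BVSC P14 and ROSAmTmG P12, Gsc at 56.5 against 10.5, 4.65 and 1.52 FPKM, and Gata6 at 21.8 against 3.03, 1.60 and 0.328 FPKM. For each of these the gap to the nearest library, as a share of the range, was above the limit of 0.829 for 4 samples. Sp5 (0.782) and Sall3 (0.533) did not pass it. Chance meets this rule in about 1 of 20 groups of normally spread values. Here it was applied to FPKM without a log scale, to a small count and to several measures, so its rate is not known.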

How the results depend on the processing

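The number of valleys, 151, depended on how they were cut. It was 56 at a methylation limit of 0.1, 228 when joined over at most 10 unlisted windows, 243 with a single window above the limit passed over, 317 at a span of 4 kb and 41 at 7 kb. Joined over no unlisted window no valley was left, so that setting gives no value. The percent of valleys with H3K27me3, 68.9%, was 55.4% at the limit of 0.1, 87.8% at 7 kb, 76.2% when marked at 3 times the autosomal mean and 33.8% at 10 times. That with H3K4me3 was 79.5% at 10 times. The percent of valley genes under the FPKM limit, 63.6%, was 53.3% at the methylation limit of 0.1, 87.5% at 7 kb, 50.9% for a limit of 0.3 FPKM and 72.7% for 3 FPKM. The percent of genes in the transcription factor lists, 58.3%, was 43.4% at 4 kb and 76.5% at 7 kb. Counting the start of any protein-coding transcript, an alternative chosen after seeing the data, 79.5% of valleys held a start. Genes of valleys at a methylation limit of 0.1 gave 14 higher and 7 lower genes against mESCs, and 5 higher and 11 lower against EpiSCs. With all 7 long-term fPSC libraries, which adds those kept out of the main model, 5 genes were higher than in EpiSCs. The limma adjusted p of Lhx1 was then 0.0573. Leaving out 1 library at a time, genes higher than in mESCs ranged from 18 to 25 and lower ones from 15 to 19, and genes higher than in EpiSCs from 5 to 9 and lower ones from 14 to 26. Where this left 1 library in a group, its spread was taken from the other groups. Of 196 values of named genes under these alternatives 193 kept their call, 3 lost it and 0 reversed. Another scaling to the same upper quartile changed neither count of valley genes. No paired analysis was possible because the fPSC libraries of passages 10, 20 and 30 carry no replicate numbers that mESCs or EpiSCs share. The causes of these shifts were not tested. Methylation coverage, the RNA depth and a second track of each mark are not given, which limits the precision of single valleys.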
